A study of Mus musculus with 6 samples.

Results

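Macrophages that clear a lesion take up lipid from dead tissue, store it in droplets, break it down in lysosomes and pass the cholesterol on. The 10 genes described here cover these steps and were listed by name for their roles, with earlier results of these data known: the regulators Pparg and Nr1h3, the uptake and carrier genes Cd36, Msr1 and Fabp4, the storage and lysosomal genes Plin2, Soat1 and Lipa, and the efflux transporters Abca1 and Abcg1. All 10 of 10 were present among the 32285 features of the 6 count matrices. They were read in 22789 microglia and macrophage nuclei of 61917 nuclei that passed the filter. The nuclei came from photothrombotic (PT) lesions of the mouse cortex, in which light-activated dye closes vessels and kills a patch of tissue, at 7 and 21 days post-injury (dpi). The paper's results describe the samples as lesion tissue with residual brain tissue, whereas its methods state that lesions alone were dissected for them.

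Each day had 3 libraries. Ctrl was wild type (WT) tissue with no treatment named. ADWA11 was tissue of WT mice given ADWA11, an antibody that blocks the integrin αvβ8, which frees active TGFβ from its latent form. Tgfbr2-cKO was tissue of Col1a2(creER); Tgfbr2(flox) mice, whose tamoxifen-inducible Cre deletes the TGFβ receptor gene Tgfbr2 in Col1a2-expressing cells, mainly fibroblasts, and not in macrophages by design. All mice carried the PT injury, each library pooled 2 mice (1 male and 1 female), and no Cre-only control was among the 6 libraries. The labels give no age, and whether Ctrl mice received an isotype antibody is not stated in them. With 1 library per group no test between groups was possible. Intervals below are exact 95% intervals that cover counting error only.

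As background, PPARγ (encoded by Pparg) and LXRα (encoded by Nr1h3) are nuclear receptors that sense fatty acid and oxysterol ligands and bind DNA with RXR. PPARγ is known to drive Cd36 and Fabp4, and LXRα drives Abca1 and Abcg1. Lipid-laden macrophages filled with myelin and membrane cholesterol are a common feature of brain lesions.

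The nuclei fell into groups named from fixed marker genes. The microglia-like cluster had 7 of 8 microglia markers raised, with Sall1 among its 10 leading genes, and held 6056 nuclei, and 4 of 8 neuron markers were raised in it too. The border-associated cluster had 7 of 8 markers of border macrophages raised, with Cd163 and Cbr2 among its leading genes, and held 2100 nuclei. Its leading genes also included Iigp1, Gbp4, Gbp5 and Gbp2, which are not among those markers. Clusters 1, 2, 3 and 7 held the general myeloid markers but met no single cell type name. They are called the lesion macrophage clusters and held 13142 nuclei together. Cluster 2 also had 4 of 8 fibroblast markers raised, and cluster 1 had 2 of 8 osteoclast markers raised. In cluster 7 the scar-associated macrophage and osteoclast markers tied, with 3 of 8 raised for each. Cluster 1 was led by Gm11099 and included Fabp4 among its 10 leading genes, cluster 2 by Dach1 and Myo1d, cluster 3 by Cfap299 and Hpgd, and cluster 7 by Mmp12 and Cd200. A proliferating cluster of 1491 nuclei made up the rest.

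The clusters were spread unevenly over the libraries. ADWA11 libraries held 91.3% of cluster 1 and 92.8% of cluster 3, whereas cluster 2, with 19.9% in ADWA11 libraries, held most lesion macrophages of the Ctrl and Tgfbr2-cKO libraries. A cluster that lies mostly in 1 library may be that library rather than a cell type. The microglia-like cluster had 1733 nuclei in Ctrl and 1673 in Tgfbr2-cKO at 7 dpi but 89 in ADWA11 at 7 dpi and 24 in ADWA11 at 21 dpi, and the last was not compared. In those 89 nuclei the 8 microglia markers summed to a counts-per-million level (CPM) of 969, against 2572 in Ctrl, so the name fits them less well. Lesion macrophage nuclei of the same library held a sum only a little lower, and those of Ctrl at 7 dpi a higher one, as given below. Whether nuclei of microglial origin lie in the lesion macrophage clusters was not tested. Only 45 border-associated nuclei came from Tgfbr2-cKO at 7 dpi, under the minimum of 50, and that library was not compared for them. Total unique molecular identifiers (UMIs) per library ran from 64798965 to 140310354. Pairs of libraries shared between 21 and 61 barcodes. Whole-gene counts of Tgfbr2 in fibroblasts were 331.2 CPM in Ctrl and 249.6 in Tgfbr2-cKO at 7 dpi, then 239.9 and 200.2 at 21 dpi. They include tags outside the deleted exon and so do not check the deletion.

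Because the 2 nuclear receptors bind DNA repeats built on the half-site AGGTCA, the 250 bases before RefSeq transcript starts of the members were searched (GRCm38.p6). These starts can differ from the GENCODE gene bounds given below: the Cd36 and Nr1h3 windows and all or part of the Pparg windows lie inside those bounds. Of the 10 members 7 had a window, with 10 windows in all, and Fabp4, Abcg1 and Msr1 had none. The half-site AGGTCA on either strand was in 4 of these 10 windows and in 14.0% of all 32851 windows. A direct repeat with 4 spaced bases (DR4, searched as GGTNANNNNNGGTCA, both strands), the usual arrangement for LXR and RXR, was in 1 of the 10 windows, that of Abca1, and in 0.177% of all windows. A direct repeat with 1 spaced base (DR1, searched as AGGNCANAGGNCA), the usual arrangement for PPAR and RXR, was in 0 of the 10 and in 0.338% of all. The half-site windows were 2 of Pparg and 1 each of Cd36 and Plin2, so the Abca1 window held no AGGTCA. The DR4 pattern left the first base of both half-sites and the C of the first free. The DR1 pattern left only the T of both free, so the patterns were not equally strict. The 3 windows below are shown because their genes carry differences described later or, for Abca1, the DR4 match. Capitals mark the DR4 match in Abca1 and the half-site in the others, each on the strand opposite to the gene, and distances are from the RefSeq start. A match is only a description of the letters.
Abca1, chr4:53159896-53160145, minus strand, DR4 from 67 to 53 bases before the start: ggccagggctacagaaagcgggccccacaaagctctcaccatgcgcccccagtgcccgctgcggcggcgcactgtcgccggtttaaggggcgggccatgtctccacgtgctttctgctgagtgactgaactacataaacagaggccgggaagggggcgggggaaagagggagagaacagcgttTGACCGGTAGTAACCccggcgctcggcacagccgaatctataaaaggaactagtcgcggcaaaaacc
Cd36, chr5:17835897-17836146, minus strand, half-site from 228 to 223 bases before the start: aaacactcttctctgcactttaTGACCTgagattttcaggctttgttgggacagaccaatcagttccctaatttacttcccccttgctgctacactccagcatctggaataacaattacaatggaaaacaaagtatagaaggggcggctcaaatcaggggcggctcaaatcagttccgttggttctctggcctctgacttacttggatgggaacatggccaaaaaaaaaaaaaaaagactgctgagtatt
Plin2, chr4:86670060-86670309, minus strand, half-site from 218 to 213 bases before the start: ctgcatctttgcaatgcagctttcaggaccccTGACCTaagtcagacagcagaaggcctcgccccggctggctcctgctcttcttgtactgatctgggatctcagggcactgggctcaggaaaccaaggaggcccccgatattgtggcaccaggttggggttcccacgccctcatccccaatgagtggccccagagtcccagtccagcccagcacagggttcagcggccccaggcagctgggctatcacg

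Levels are given as CPM, taken from the non-mitochondrial UMIs of the same group of nuclei in the same library. A gene was called higher or lower where the 2 libraries differed at least 2-fold, the interval of the log2 ratio left out 0, and the libraries together held at least 20 UMIs of the gene. The UMIs are not corrected for gene length, so levels are compared between libraries and groups, not between genes.

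**Figure D1:**
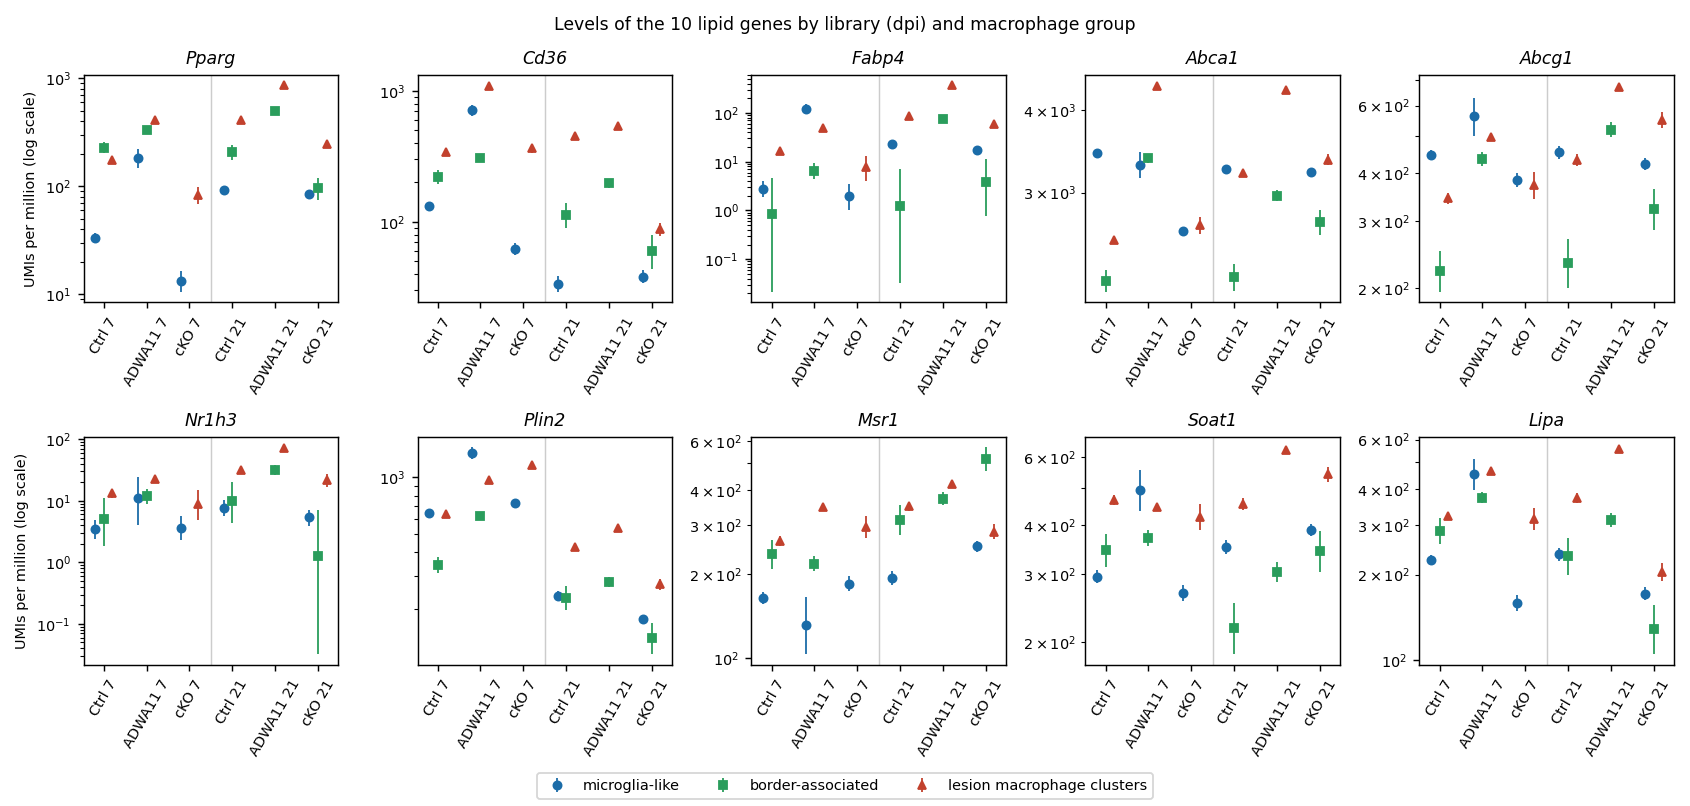
Level of each of the 10 genes (y axis, CPM, log scale) in the 6 libraries (x axis) for microglia-like nuclei (circles), border-associated nuclei (squares) and the lesion macrophage clusters (triangles), with exact 95% Poisson intervals. Groups with fewer than 50 nuclei are left out. In the lesion macrophage clusters Pparg was highest in ADWA11 at 21 dpi (858.0) and lowest in Tgfbr2-cKO at 7 dpi (82.5).

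ADWA11 against Ctrl asked what blocking αvβ8 did to these genes. At 7 dpi, 3 of the 10 genes were higher in the lesion macrophage clusters (Cd36, Fabp4 and Pparg) and 0 were lower, while 6.82% of the 15614 features compared were higher and 5.89% were lower. The median log2 ratio of the 10 genes was 0.69, beside 0.01 over all features compared. Grouping the nuclei by log-normalised clustering left Pparg under 2-fold (0.79), as did the female nuclei alone (0.95), while Cd36 and Fabp4 stayed past it under all 12 alternatives. In the border-associated cluster 2 of the 10 genes were higher, Fabp4 and Nr1h3, and 0 were lower, with 3.73% of all features higher and 2.08% lower, and the median was 0.57 beside 0.04. The first was under 2-fold without the 5 nuclei with most UMIs (0.69) and the second in female nuclei (0.47) or with the lipid genes kept in the clustering (0.35). In the 89 microglia-like nuclei 6 of the 10 were higher (Pparg, Cd36, Fabp4, Nr1h3, Plin2 and Lipa), with 6.92% of all features higher and 4.25% lower, and the median was 1.04 beside 0.11, although Plin2 stayed past 2-fold in 4 of 7 alternatives (lowest 0.82) and Lipa in 3 of 7 (lowest 0.73).

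At 21 dpi the lesion macrophage clusters again had 3 of the 10 genes higher under ADWA11 (Pparg, Fabp4 and Nr1h3) and 0 lower. Over all 15376 features 3.29% were higher and 9.76% lower, so the background leaned the other way. The median of the 10 genes was 0.52 beside -0.07 over all features. With log-normalised clustering Pparg (0.39) and Nr1h3 (0.63) were under 2-fold, in female nuclei alone Pparg was at 0.998, and in male nuclei alone Nr1h3 was at 0.89. In the border-associated cluster 4 of the 10 were higher (Pparg, Fabp4, Abcg1 and Nr1h3), with 3.62% of all features higher and 3.37% lower, and the median was 0.64. That border result depended on the clustering: with the lipid genes kept in the clustering the median was -0.15, and Abcg1 and Nr1h3 were at -0.09 and -0.20, with Pparg at 0.43 and Fabp4 at 1.03. It also differed between the mice: in female nuclei Pparg (0.82), Abcg1 (0.61) and Nr1h3 (0.38) were all under 2-fold, and Pparg, Abcg1 and Nr1h3 each stayed past 2-fold in 6 of 10 alternatives. The border-associated cluster held 725 nuclei of ADWA11 at 21 dpi but 421 at resolution 0.5, where an unnamed cluster led by Iigp1 and Cxcl9 held 323 nuclei of that library.

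Tgfbr2-cKO against Ctrl asked what losing the receptor in fibroblasts did to the same genes in macrophages. At 7 dpi 2 of the 10 genes were lower in the lesion macrophage clusters (Pparg and Fabp4) and 0 were higher, with 7.27% of all features higher and 2.06% lower. In microglia-like nuclei 2 of the 10 were lower (Pparg and Cd36) and 0 were higher, with 11.4% of all features higher and 2.55% lower. The median of the 10 genes was 0.02 in the lesion clusters and -0.31 in microglia-like nuclei, beside 0.01 and 0.08 over all features. As means per nucleus the lesion Fabp4 ratio was -0.75 and the microglia-like Pparg ratio -0.81, female nuclei gave -0.98 for Pparg in the lesion clusters, and clustering at resolution 0.5 gave -0.40 for Cd36 in microglia-like nuclei, all under 2-fold. The 2 libraries fell into different clusters under other clusterings. At resolution 0.5 the microglia-like cluster held 1611 Ctrl but 98 Tgfbr2-cKO nuclei of 7 dpi, and 1540 Tgfbr2-cKO nuclei lay in an unnamed cluster whose leading genes included the neuron genes Nrg3, Syt1 and Snap25. With log-normalised clustering the microglia-like cluster held 1685 and 49, and 1658 Tgfbr2-cKO nuclei lay in such a cluster. Neuron markers summed to 150.2 CPM in microglia-like nuclei of Ctrl and 587.1 in those of Tgfbr2-cKO at 7 dpi, and their part in the ratios was not tested. Neuron nuclei were also unevenly spread. A neuron cluster of 2041 nuclei held 1679 of Tgfbr2-cKO and 43 of Ctrl at 7 dpi, and another of 1019, whose leading genes included Drd2, held 979 and 0. Those of 1704, 1190, 1166 and 377 nuclei held 1109, 1024, 1148 and 117 of Tgfbr2-cKO, against 79, 1, 13 and 0 of Ctrl. These libraries held 10594 and 8294 nuclei in all. At 21 dpi the cluster of 2041 held 293 of Tgfbr2-cKO and 16 of Ctrl, and that of 1704 held 319 and 176. Whether the dissected tissue differed between these libraries was not tested.

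At 21 dpi only Cd36 was called among the 10 genes in the lesion macrophage clusters, and it was lower, with 4.65% of all features higher and 6.12% lower. The median of the 10 was -0.56 beside 0.03 over all features, but -0.18 within cluster 2 alone. In the border-associated cluster 1 of 8 genes compared, Pparg, was lower, with 4.01% of all features higher and 3.39% lower, and the median was -0.22. Pparg stayed past 2-fold there in 6 of 10 alternatives, with a highest value of -0.43 under log-normalised clustering. In microglia-like nuclei 0 of the 10 genes were called, with 5.25% of all features higher and 3.67% lower, and the median was -0.11.

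Day 21 against day 7 in Ctrl gave 3 of the 10 genes higher in the lesion macrophage clusters (Pparg, Fabp4 and Nr1h3), with 9.4% of all features higher and 2.17% lower. Within cluster 2 alone Pparg (0.56) and Nr1h3 (0.74) were under 2-fold, as they were in female nuclei (0.96 and 0.95). Microglia-like nuclei had the same 3 genes higher and 2 lower, Cd36 and Plin2, with 9.41% of all features higher and 3.38% lower, and at resolution 0.5 Pparg (0.99) and Nr1h3 (0.53) were under 2-fold. The days fell into different clusters there: the microglia-like cluster held 1611 Ctrl nuclei of 7 dpi but 281 of 21 dpi, and an unnamed cluster with Apoc4 and Apoc1 among its leading genes held 69 and 821. The border-associated cluster had 0 of 8 genes compared called, with 5.17% of all features higher and 2.57% lower. The day medians were 0.38 in the lesion clusters, 0.15 in microglia-like and -0.22 in border-associated nuclei. The ADWA11 and Tgfbr2-cKO comparisons share the Ctrl libraries, so their ratios are not independent of each other or of the day comparison.

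**Figure D2:**
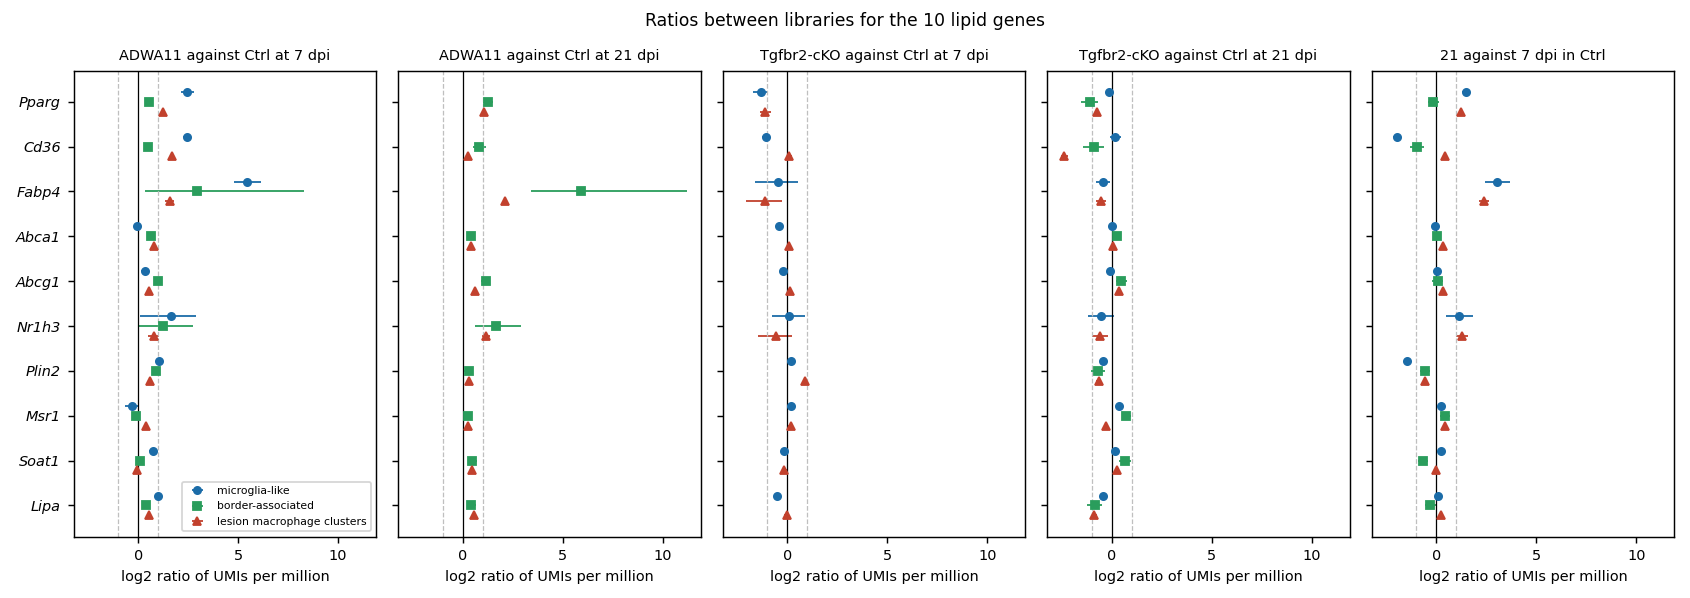
log2 ratio of CPM (x axis) for each of the 10 genes (y axis) in 5 comparisons of libraries, with exact 95% binomial intervals, for microglia-like nuclei (circles), border-associated nuclei (squares) and the lesion macrophage clusters (triangles). Dashed lines mark a 2-fold difference, and genes with under 20 UMIs in the 2 libraries are left out. Abca1, Msr1 and Soat1 stay within 1 log2 unit of 0 in each panel.

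Among the regulators, Pparg (ENSMUSG00000000440, chromosome 6, 115360951 to 115490399, plus strand, GRCm38) differed with day, antibody and deletion. Its level in the lesion macrophage clusters was 176.1 CPM in Ctrl, 413.1 in ADWA11 and 82.5 in Tgfbr2-cKO at 7 dpi. At 21 dpi it was 408.6 CPM in Ctrl, 858.0 in ADWA11 and 246.8 in Tgfbr2-cKO. On both days the order was the same, with ADWA11 highest and Tgfbr2-cKO lowest. The log2 ratio of ADWA11 to Ctrl was 1.23 (1.16 to 1.30) at 7 dpi and 1.07 (1.01 to 1.13) at 21 dpi. That of Tgfbr2-cKO to Ctrl was -1.09 (-1.36 to -0.84) at 7 dpi and -0.73 (-0.84 to -0.62) at 21 dpi, the last under 2-fold.

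Pparg in microglia-like nuclei was lower throughout but had a similar order at 7 dpi: 33.3 CPM in Ctrl, 183.1 in ADWA11 and 13.2 in Tgfbr2-cKO. By 21 dpi Ctrl stood at 92.2 CPM and Tgfbr2-cKO at 84.7, a log2 ratio of -0.12 (-0.29 to 0.04). The mice went opposite ways, with 91.5 CPM in the female Ctrl and 104.9 in the female Tgfbr2-cKO mouse, against 88.0 and 60.9 in the males. The rise from 7 to 21 dpi in microglia-like nuclei was thus 1.47 (1.27 to 1.67) in Ctrl and 2.68 (2.34 to 3.04) in Tgfbr2-cKO on the log2 scale. In border-associated nuclei Pparg was 227.4 CPM in Ctrl and 328.8 in ADWA11 at 7 dpi, and 205.9 in Ctrl, 496.2 in ADWA11 and 95.4 in Tgfbr2-cKO at 21 dpi. Border-associated nuclei of Ctrl therefore showed no called change between the days (-0.14, -0.43 to 0.14), with 233.6 CPM at 7 dpi and 243.5 at 21 dpi in the female mice and 274.3 and 148.0 in the male mice. The difference from the other groups was not tested.

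Nr1h3 (ENSMUSG00000002108, chromosome 2, 91184061 to 91202834, minus strand) had few UMIs. In the lesion macrophage clusters it was 13.2 CPM in Ctrl, 22.7 in ADWA11 and 8.9 in Tgfbr2-cKO at 7 dpi, then 32.2, 71.3 and 21.6 in the same order at 21 dpi. Within each day ADWA11 was highest and Tgfbr2-cKO lowest, as for Pparg. The log2 ratio of ADWA11 to Ctrl was 0.78 (0.51 to 1.05) at 7 dpi and 1.15 (0.94 to 1.36) at 21 dpi. The ratio of 21 to 7 dpi in Ctrl was 1.29 (0.97 to 1.60). The Tgfbr2-cKO ratios were -0.57 on both days, with intervals of -1.48 to 0.22 at 7 dpi, where the library held 14 UMIs, and -0.97 to -0.19 at 21 dpi. At 7 dpi the mice differed, with 15.4 CPM in the female Ctrl and 4.2 (3 UMIs) in the female Tgfbr2-cKO mouse, against 11.8 and 11.3 in the males.

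Among the uptake genes, Cd36 (ENSMUSG00000002944, chromosome 5, 17781690 to 17888801, minus strand), a scavenger receptor and fatty acid translocase, followed another course. Lesion macrophage nuclei held 339.9 CPM in Ctrl, 1099.3 in ADWA11 and 364.4 in Tgfbr2-cKO at 7 dpi. At 21 dpi it was 453.5 CPM in Ctrl, 540.5 in ADWA11 and 88.0 in Tgfbr2-cKO. The antibody library thus stood apart at 7 dpi and the deletion library at 21 dpi. The log2 ratio of ADWA11 to Ctrl was 1.69 (1.64 to 1.74) at 7 dpi and 0.25 (0.20 to 0.31) at 21 dpi. That of Tgfbr2-cKO to Ctrl was 0.10 (-0.03 to 0.23) at 7 dpi and -2.37 (-2.54 to -2.19) at 21 dpi. The last lay between -3.10 and -2.16 over 12 alternatives. From 7 to 21 dpi Cd36 fell by 2.05 on the log2 scale in Tgfbr2-cKO and by 1.02 in ADWA11, while the ratio in Ctrl was 0.42 (0.35 to 0.49).

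Cd36 UMIs were concentrated in few nuclei in the Tgfbr2-cKO library of 21 dpi: 47.2% of the 301 UMIs in lesion macrophage nuclei were in 5 nuclei, against 11.4% of 3056 in Ctrl. Without the 5 nuclei in each library with the most UMIs the log2 ratio was -3.10. In microglia-like nuclei Cd36 was 131.5 CPM in Ctrl, 710.5 in ADWA11 and 62.1 in Tgfbr2-cKO at 7 dpi, then 33.7 in Ctrl and 38.1 in Tgfbr2-cKO at 21 dpi. The ADWA11 value was 1144.4 CPM in 40 nuclei of the female and 363.6 in 26 of the male, 43.3% of its 388 UMIs were in 5 nuclei, and the log2 ratio to Ctrl of 2.43 was 1.32 with the lipid genes kept in the clustering. The near-equal values of 21 dpi averaged mice that differed: 68.5 CPM in the female and 8.3 in the male Tgfbr2-cKO mouse, against 31.9 and 33.9 in Ctrl. It fell with day there by 1.96 (interval -2.19 to -1.75) in Ctrl, whereas in the lesion clusters of Ctrl the ratio lay above 0. In border-associated nuclei it was between 59.8 CPM (Tgfbr2-cKO at 21 dpi) and 308.5 CPM (ADWA11 at 7 dpi), and none of its ratios between conditions was called there.

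Fabp4 (ENSMUSG00000062515, chromosome 3, 10204088 to 10208576, minus strand) encodes a fatty acid binding protein of adipocytes and macrophages, also found in endothelium. Lesion macrophage nuclei held 16.4 CPM in Ctrl, 48.6 in ADWA11 and 7.6 in Tgfbr2-cKO at 7 dpi, then 85.2, 368.8 and 58.5 in the same order at 21 dpi. It had the widest span of the 10 genes, from 0.84 to 368.8 CPM over the 16 groups and libraries with at least 50 nuclei. The log2 ratio of ADWA11 to Ctrl was 1.57 (1.34 to 1.81) at 7 dpi and 2.11 (1.99 to 2.24) at 21 dpi. That of 21 to 7 dpi was 2.38 (2.13 to 2.64) in Ctrl, 2.92 (2.85 to 3.005) in ADWA11 and 2.94 (2.10 to 3.92) in Tgfbr2-cKO. The Tgfbr2-cKO ratio at 7 dpi, -1.10 (-2.08 to -0.26), rests on 12 UMIs in that library.

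In border-associated nuclei Fabp4 was close to absent from Ctrl, with 1 UMI on each day. It had 30 UMIs (6.5 CPM) in ADWA11 at 7 dpi and 281 UMIs (75.8 CPM) at 21 dpi, and the log2 ratios to Ctrl were 2.95 (0.36 to 8.30) and 5.91 (3.42 to 11.22). The value at 21 dpi came mainly from the male mouse, with 81.5 CPM in 513 nuclei against 13.8 CPM in 122 nuclei of the female. T cells held 23.6 CPM of Fabp4 in ADWA11 at 7 dpi and 49.7 at 21 dpi, against 13.6 and 19.0 in Ctrl. The border value at 7 dpi thus lay under the T cell level. At 21 dpi that of the female lay under it and that of the male above it. The part of free RNA in the border values was not tested. In microglia-like nuclei it rose from 2.8 CPM at 7 dpi to 23.0 CPM at 21 dpi in Ctrl. The 120.9 CPM in microglia-like nuclei of ADWA11 at 7 dpi came from few nuclei, as 86.4% of its 66 UMIs were in 5 of the 89.

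Msr1 (ENSMUSG00000025044, chromosome 8, 39581685 to 39642673, minus strand), which encodes scavenger receptor A and binds modified lipoproteins, was never called in the 3 groups, though within cluster 7 the log2 ratio of ADWA11 to Ctrl at 7 dpi was 1.41. Its lesion macrophage level was 263.0 CPM in Ctrl, 349.6 in ADWA11 and 295.2 in Tgfbr2-cKO at 7 dpi, then 349.9, 422.4 and 283.9 in the same order at 21 dpi. The ratio of Tgfbr2-cKO to Ctrl at 21 dpi lay below 0 in the lesion clusters (-0.30, -0.41 to -0.19) and above 0 in border-associated nuclei (0.73, 0.50 to 0.96) and microglia-like nuclei (0.38, 0.27 to 0.48). All 3 are under 2-fold with both mice together. In border-associated nuclei Msr1 was 296.8 CPM in the female Ctrl and 619.9 in the female Tgfbr2-cKO mouse, past 2-fold, against 321.3 and 509.8 in the males. Of the uptake receptors, Cd36 was thus called in some comparisons and Msr1 in none. Over the 33 combinations of cluster and library described below, Pearson's r between them was 0.54.

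Of the storage genes, Plin2 (ENSMUSG00000028494, chromosome 4, 86648386 to 86670060, minus strand), which coats lipid droplets, went down with day. Lesion macrophage nuclei held 637.5 CPM in Ctrl, 972.7 in ADWA11 and 1164.9 in Tgfbr2-cKO at 7 dpi, then 427.3, 540.6 and 270.4 in the same order at 21 dpi. The Tgfbr2-cKO library was the highest of the 3 at 7 dpi and the lowest at 21 dpi, with log2 ratios to Ctrl of 0.87 (0.79 to 0.94) and -0.66 (-0.77 to -0.55), both under 2-fold. From 7 to 21 dpi the log2 ratio was -2.11 (-2.22 to -1.99) in Tgfbr2-cKO, -0.85 (-0.88 to -0.82) in ADWA11 and -0.58 (-0.64 to -0.51) in Ctrl, and of these only that of Tgfbr2-cKO was past 2-fold.

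Plin2 in microglia-like nuclei fell from 644.9 to 235.5 CPM in Ctrl and from 730.8 to 176.5 CPM in Tgfbr2-cKO between the days. Those log2 ratios were -1.45 (-1.54 to -1.37) and -2.05 (-2.14 to -1.96). ADWA11 microglia-like nuclei at 7 dpi stood at 1345.9 CPM, a log2 ratio to Ctrl of 1.06 (0.95 to 1.17). In border-associated nuclei Plin2 was 341.5 CPM in Ctrl and 623.5 in ADWA11 at 7 dpi, and 228.6 in Ctrl, 279.6 in ADWA11 and 139.9 in Tgfbr2-cKO at 21 dpi.

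Soat1 (ENSMUSG00000026600, chromosome 1, 156424525 to 156474331, minus strand), the enzyme that esterifies cholesterol for storage, was called in none of the comparisons. Its level in the lesion macrophage clusters ran from 420.2 CPM in Tgfbr2-cKO at 7 dpi to 627.3 in ADWA11 at 21 dpi. ADWA11 against Ctrl gave -0.06 (-0.11 to -0.01) at 7 dpi and 0.46 (0.41 to 0.52) at 21 dpi.

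Lipa (ENSMUSG00000024781, chromosome 19, 34492318 to 34527474, minus strand), the lysosomal acid lipase that frees cholesterol and fatty acids from taken-up lipid, had ratios of ADWA11 to Ctrl above 0 and of Tgfbr2-cKO to Ctrl at 21 dpi below 0. Its lesion macrophage level was 322.0 CPM in Ctrl, 463.9 in ADWA11 and 314.2 in Tgfbr2-cKO at 7 dpi, then 373.4, 555.7 and 204.4 in the same order at 21 dpi. The Tgfbr2-cKO ratio at 21 dpi was -0.87 (-0.99 to -0.75) in the lesion clusters, -0.86 (-1.22 to -0.50) in border-associated nuclei and -0.46 (-0.57 to -0.35) in microglia-like nuclei. All were under 2-fold with both mice together, but the mice differed. In the lesion clusters Lipa at 21 dpi was 369.5 CPM in the female Ctrl mouse and 157.8 in the female Tgfbr2-cKO mouse (-1.23), against 402.1 and 256.9 in the males (-0.65). In border-associated nuclei it was 236.5 and 63.2 CPM in the females and 207.2 and 192.2 in the males. The lesion ratio was also past 2-fold with log-normalised clustering (-1.25) and with the lipid genes kept in the clustering (-1.09). Lipa was called once, in the 89 microglia-like nuclei of ADWA11 at 7 dpi (1.02, 0.82 to 1.20), and stayed past 2-fold there in 3 of 7 alternatives.

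Of the efflux transporters, Abca1 (ENSMUSG00000015243, chromosome 4, 53030787 to 53159895, minus strand), which loads cholesterol onto apolipoprotein A-I, was 2540.0 CPM in Ctrl, 4345.8 in ADWA11 and 2675.8 in Tgfbr2-cKO at 7 dpi in the lesion macrophage clusters, then 3216.4, 4288.4 and 3366.7 in the same order at 21 dpi. Its highest level over the 16 groups and libraries was 1.97 times its lowest, the narrowest span of the 10 genes. ADWA11 against Ctrl gave 0.77 (0.76 to 0.79) at 7 dpi and 0.41 (0.39 to 0.44) at 21 dpi in the lesion clusters on the log2 scale. Those of Tgfbr2-cKO were 0.08 (0.03 to 0.12) and 0.07 (0.03 to 0.10). The window with the DR4 match shown above lies directly before this gene.

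Abcg1 (ENSMUSG00000024030, chromosome 17, 31057675 to 31117988, plus strand), which passes cholesterol to high-density lipoprotein, was 343.5 CPM in Ctrl, 495.4 in ADWA11 and 371.4 in Tgfbr2-cKO at 7 dpi in the lesion macrophage clusters, then 432.5, 669.9 and 550.5 in the same order at 21 dpi. It was called only in border-associated nuclei of ADWA11 at 21 dpi, where it was 518.6 CPM against 232.4 in Ctrl (1.16, 0.94 to 1.38). The log2 ratio of Tgfbr2-cKO to Ctrl at 21 dpi was 0.35 (0.26 to 0.43) in the lesion clusters, on the other side of 0 from Pparg, Cd36 and Lipa.

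Because ADWA11 and Ctrl nuclei lay mostly in different lesion clusters, the ratios were also read within cluster 2, the cluster with at least 50 nuclei in every library. Within cluster 2, ADWA11 against Ctrl at 7 dpi gave log2 ratios of 1.44 for Pparg, 2.07 for Cd36, 3.05 for Fabp4 and 1.52 for Nr1h3, all called, where 6.28% of all features in that cluster were higher and 3.68% lower. At 21 dpi the ratios were 1.43 for Pparg, 2.72 for Fabp4 and 1.48 for Nr1h3, all called, and 0.84 for Cd36, with 7.89% of all features higher and 2.96% lower. The other clusters gave smaller Pparg ratios at 21 dpi where Ctrl was already high: 0.24 in cluster 1 and 0.41 in cluster 7, against 1.31 in cluster 3. Of the 131 nuclei of ADWA11 at 21 dpi in lesion cluster 2, 44 were called doublets, and the fibroblast markers summed to 2380.8 CPM there against 1685 in Ctrl, and their part in those ratios was not tested. Tgfbr2-cKO against Ctrl within cluster 2 gave -0.72 for Pparg at 7 dpi and -2.16 for Cd36 at 21 dpi, so the Pparg difference at 7 dpi was under 2-fold there. Pparg at 21 dpi was 228.8 CPM in Tgfbr2-cKO and 244.4 in Ctrl within cluster 2, a log2 ratio of -0.09.

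The clusters also differed from each other within a library. In Ctrl at 21 dpi Pparg was 739.9 CPM in cluster 1, 635.2 in cluster 7, 340.6 in cluster 3 and 244.4 in cluster 2. Fabp4 in the same library was 196.4, 184.0, 28.9 and 31.8 CPM in that order of clusters. Cd36 was highest in cluster 7 of ADWA11 at 7 dpi, at 2693.9 CPM, and Plin2 in cluster 7 of Tgfbr2-cKO at 7 dpi, at 1707.0 CPM. In Ctrl at 21 dpi clusters 1 and 7 held the most Pparg and Fabp4, although Fabp4 is one of the leading genes of cluster 1 and its level there is no separate finding. Marker levels also differed: the osteoclast list summed to 2233.7 CPM in lesion cluster 1 and 1044 in cluster 2 of Ctrl at 21 dpi.

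**Figure D3:**
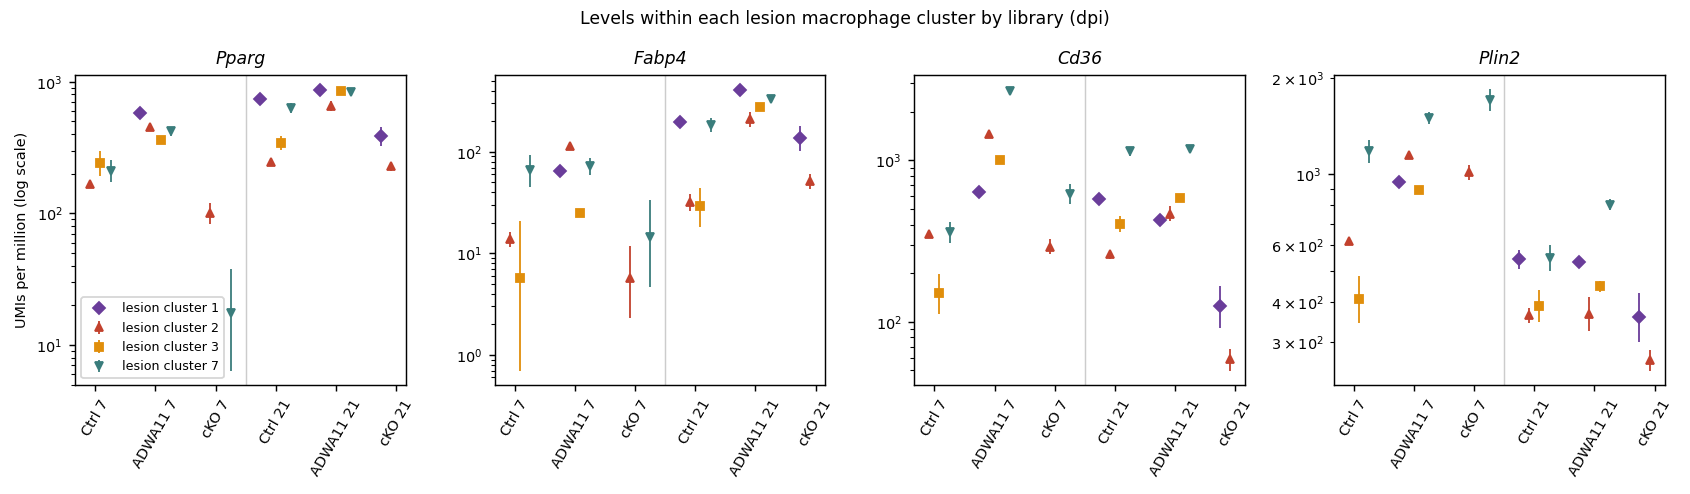
Level of Pparg, Fabp4, Cd36 and Plin2 (y axis, CPM, log scale) within lesion macrophage clusters 1, 2, 3 and 7 in the 6 libraries (x axis), with exact 95% Poisson intervals. Clusters with fewer than 50 nuclei in a library are left out. Within cluster 2, Pparg was 165.9 in Ctrl and 449.3 in ADWA11 at 7 dpi, and 244.4 and 656.3 at 21 dpi.

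Nuclei could be assigned to the female or the male mouse of a library from Xist and Y-linked UMIs, which gives 2 animals per group but not separate libraries, and sex and animal cannot be told apart. Nuclei with neither or both were assigned to no mouse, among them 325 of 1609 lesion macrophage nuclei of Ctrl at 21 dpi. Values of a whole library include them and can lie outside those of its 2 mice. ADWA11 at 21 dpi had 1068 female and 3035 male lesion macrophage nuclei. In the lesion macrophage clusters at 7 dpi, Pparg was 217.1 and 154.6 CPM in the female and male Ctrl mouse, 419.8 and 414.8 in the ADWA11 mice and 110.2 and 60.2 in the Tgfbr2-cKO mice. At 21 dpi it was 422.2 and 419.4 CPM in the Ctrl mice, 843.4 and 864.8 in the ADWA11 mice and 224.0 and 279.1 in the Tgfbr2-cKO mice. The share of all features whose mice separate by group was not computed, so these are values only. Cd36 at 21 dpi was 482.9 and 490.3 CPM in the Ctrl mice and 91.6 and 102.9 in the Tgfbr2-cKO mice. At 7 dpi Cd36 differed more between the 2 Ctrl mice (475.6 and 267.3 CPM) than between Tgfbr2-cKO mice (415.8 and 398.7 CPM), and these groups overlapped. Fabp4 at 21 dpi was 100.0 and 64.3 CPM in the Ctrl mice, 353.2 and 370.4 in the ADWA11 mice and 47.3 and 85.6 in the Tgfbr2-cKO mice. The Ctrl and Tgfbr2-cKO mice overlapped. Some lesion ratios to Ctrl under 2-fold with both mice were past it in 1 mouse: Nr1h3 in the male of ADWA11 at 7 dpi (1.29), Plin2 in the male of Tgfbr2-cKO at 7 dpi (1.06) and Fabp4 in the female of Tgfbr2-cKO at 21 dpi (-1.08). Nr1h3 in the female of Tgfbr2-cKO at 7 dpi was past it too, on the lower side and on 3 UMIs.

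**Figure D4:**
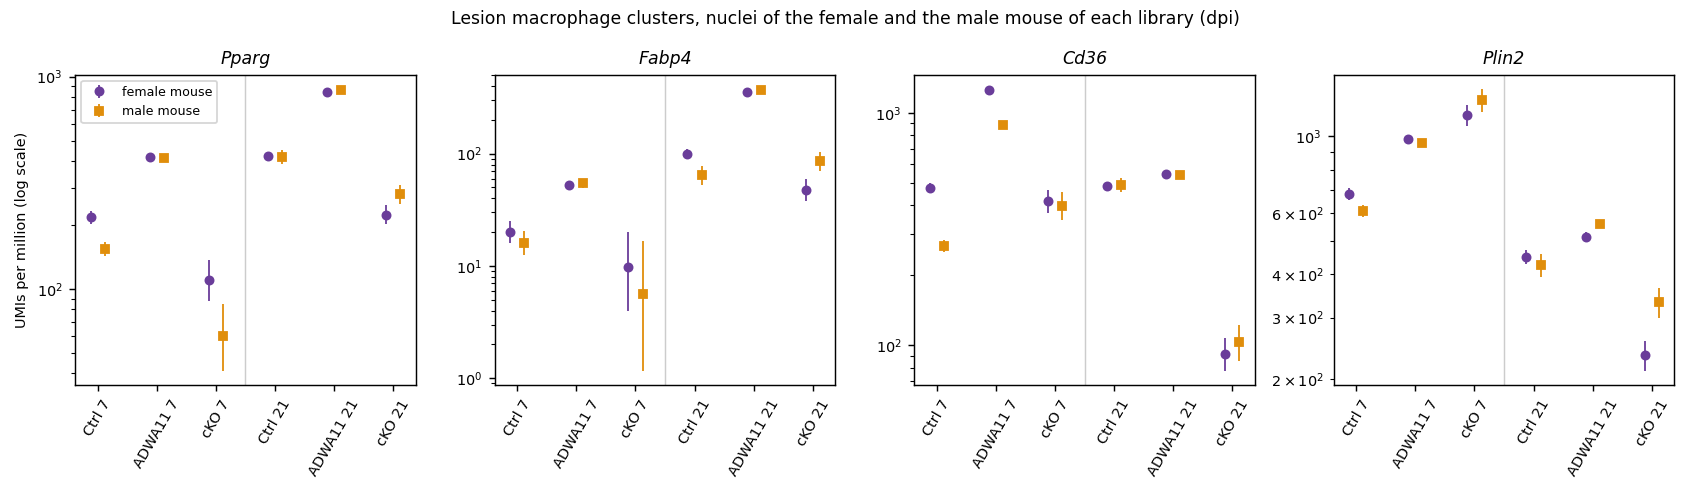
Level of Pparg, Fabp4, Cd36 and Plin2 (y axis, CPM, log scale) in lesion macrophage nuclei of the female mouse (circles) and the male mouse (squares) of each library (x axis), with exact 95% Poisson intervals. At 21 dpi the Tgfbr2-cKO mice have Cd36 levels of 91.6 and 102.9 against 482.9 and 490.3 in Ctrl.

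Markers of other cells moved with the groups. In the lesion macrophage clusters the 8 fibroblast markers summed to 753 CPM in Ctrl and 64 in Tgfbr2-cKO at 7 dpi, then to 1272.1 and 71 at 21 dpi, while the 8 neuron markers summed to 77 in Ctrl and 478 in Tgfbr2-cKO at 7 dpi. Cd36 in fibroblast nuclei was between 3.8 and 80.6 CPM over the 6 libraries. In T cells Pparg and Cd36 differed between libraries in the same direction at lower levels. Pparg was 28.7 CPM in Ctrl and 107.2 in ADWA11 at 7 dpi, and 72.3 in Ctrl, 183.0 in ADWA11 and 22.0 in Tgfbr2-cKO at 21 dpi. Cd36 in T cells was 52.9 CPM in Ctrl and 283.0 in ADWA11 at 7 dpi, close to the 308.5 CPM of border-associated nuclei, and 58.7 in Ctrl and 4.7 in Tgfbr2-cKO at 21 dpi. Most of the other genes were also higher in T cells of ADWA11, such as Abca1 at 7 dpi (949.7 against 481.7 CPM in Ctrl). Lower there were Abcg1 at 7 dpi (122.2 against 135.9 CPM), and Plin2 (94.2 against 106.6) and Soat1 (167 against 174) at 21 dpi. Astrocytes of ADWA11 also had more Pparg at 21 dpi (117.0 against 25.4 CPM) and Cd36 at 7 dpi (84.6 against 11.9). Their Abcg1 was lower at 7 dpi (32.3 against 38.9 CPM). In dendritic cells Pparg at 7 dpi was 284.5 CPM in ADWA11 and 114.5 in Ctrl. The part of free RNA in the ratios was not tested. The 8 endothelial markers, of interest because endothelium also uses Fabp4, summed to between 19 and 68 CPM in lesion macrophage nuclei. Fabp4 in endothelial nuclei was between 10.1 and 115.2 CPM in the 5 libraries with at least 50 of them. The 368.8 CPM of lesion macrophages of ADWA11 at 21 dpi lay above this range, but their levels in the other libraries, given above, lay under its top. The part of endothelial RNA was not tested. Microglia markers in lesion macrophage nuclei were 1313.8 CPM in Ctrl and 882.6 in ADWA11 at 7 dpi, and 1010 and 412 at 21 dpi, and their part in the ADWA11 ratios was not tested.

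The wider lipid pathway was read from 6 lists of 8 genes. For ADWA11 in the lesion macrophage clusters the list medians ran from -0.19 to 0.09 at 7 dpi, beside 0.69 for the 10 genes. At 21 dpi they ran from -0.55 to 0.22, beside 0.52. For Tgfbr2-cKO they ran from -0.25 to 0.37 at 7 dpi, beside 0.02, and from -0.48 to 0.33 at 21 dpi, beside -0.56. The called genes named below are thus not the course of their whole lists. The counts below stand beside the shares of all features in the lesion macrophage clusters that were higher and lower: 6.82% and 5.89% for ADWA11 at 7 dpi, 3.29% and 9.76% for ADWA11 at 21 dpi, 7.27% and 2.06% for Tgfbr2-cKO at 7 dpi, and 4.65% and 6.12% for Tgfbr2-cKO at 21 dpi. In the lesion macrophage clusters of ADWA11 at 7 dpi, 3 of 8 uptake and lipoprotein receptor genes compared were higher (Lpl, Stab2 and Marco) and 1 was lower (Olr1). Lpl, the lipase that releases fatty acids from lipoproteins, was 187.5 CPM in Ctrl and 1033.3 in ADWA11, a log2 ratio of 2.46 (2.40 to 2.53). Stab2 and Marco were higher and Olr1 lower at 21 dpi as well. In Tgfbr2-cKO 2 of 6 were lower at 21 dpi, Lpl and Olr1, and 0 were called at 7 dpi. At 21 dpi Lpl was 736.1 CPM in Ctrl and 219.6 in Tgfbr2-cKO (-1.75, -1.86 to -1.63), so like Cd36 it stood high in ADWA11 at 7 dpi and low in Tgfbr2-cKO at 21 dpi. Lrp1 and Scarb1 were not called in the lesion clusters.

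Of 7 efflux and lipoprotein genes compared in the lesion clusters, 2 were higher (Pltp and Cyp27a1) and 1 lower (Apoc2) under ADWA11 at 7 dpi. At 21 dpi 1 was higher (Pltp), while 5 of the 7 lay below 0 and the list median was -0.55. Pltp, a phospholipid transfer protein, was 93.7 CPM in Ctrl and 331.5 in ADWA11 at 7 dpi (1.82, 1.73 to 1.92). Apoe, the main apolipoprotein of the brain, was not called, with log2 ratios of -0.27 at 7 dpi and -0.94 at 21 dpi for ADWA11 against Ctrl, and Mylip was at 0.25 and -0.01. In Tgfbr2-cKO 1 of 7 was higher at 7 dpi (Apoc1) and 0 were called at 21 dpi.

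The lysosome and lipolysis list had 1 gene called in each ADWA11 comparison of the lesion clusters, and it was Mgll, monoacylglycerol lipase, which is named because it was the only one. Mgll was 50.8 CPM in Ctrl and 359.7 in ADWA11 at 7 dpi (2.82, 2.70 to 2.95), and 219.3 and 1043.9 at 21 dpi (2.25, 2.18 to 2.33). Its most abundant genes Nceh1, Scarb2 and Lamp1 were not called, and 0 of 8 were called in Tgfbr2-cKO on either day.

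Among lipid droplet genes 1 was called under ADWA11 at 7 dpi and on each day in Tgfbr2-cKO, and it was each time Hilpda, a droplet protein induced by low oxygen. Under ADWA11 at 7 dpi it was 14.9 CPM against 6.1 in Ctrl (1.29, 0.91 to 1.69). Hilpda was 6.1 CPM in Ctrl and 59.0 in Tgfbr2-cKO at 7 dpi (3.28, 2.80 to 3.76), and 3.9 and 1.2 CPM at 21 dpi, where the Tgfbr2-cKO library held 4 UMIs (-1.72, -3.70 to -0.19). This high-then-low course in Tgfbr2-cKO was also that of the droplet coat gene Plin2. It was not particular to macrophages for Plin2. T cells held 425.8 CPM of Plin2 in 49 nuclei of Tgfbr2-cKO and 219 in Ctrl at 7 dpi, then 62.0 and 106.6 at 21 dpi. The droplet genes Acsl1, Acat1 and Plin3 were not called. The transcription factor list (most abundant Mitf, Ppard and Tfeb) and the sterol and fatty acid synthesis list (Scd2, Srebf2 and Srebf1) had 0 genes called in the lesion clusters in any of the 4 comparisons of conditions.

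**Figure D5:**
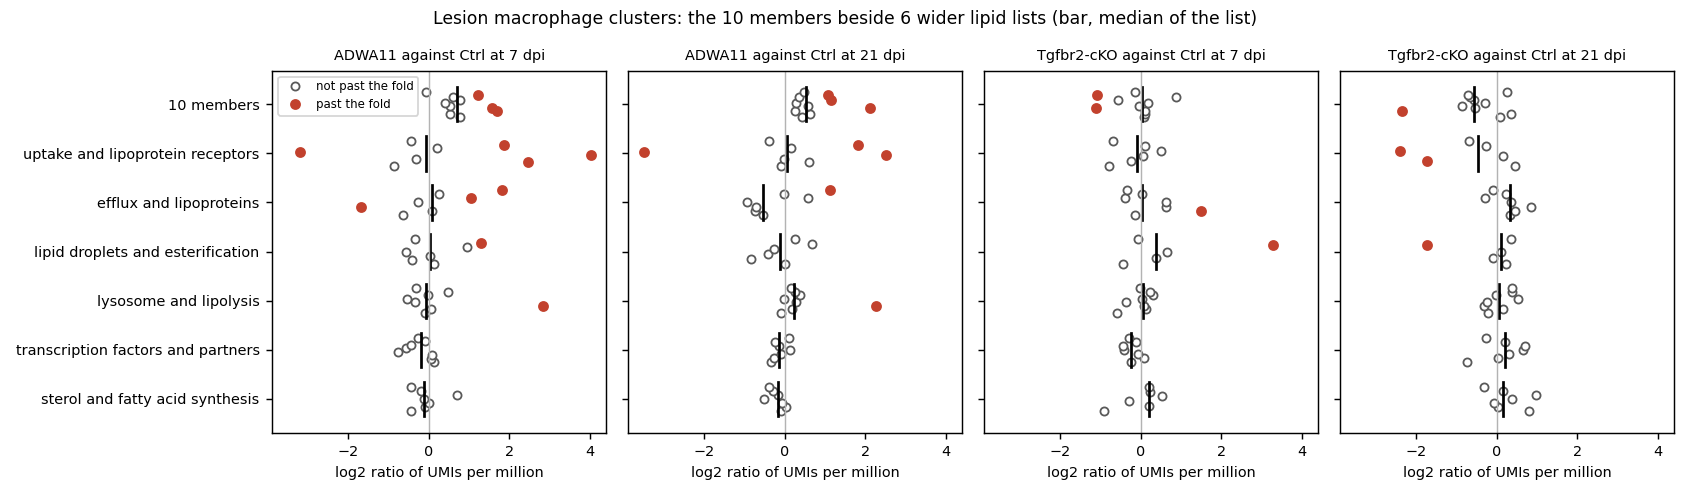
log2 ratio of CPM (x axis) in the lesion macrophage clusters for the 10 genes and the genes of 6 wider lipid lists (y axis), with 1 point per gene, filled where the gene passed the 2-fold criterion, and a bar at the median of the list. Marco at 7 dpi under ADWA11 is drawn at its lower bound because Ctrl held 0 UMIs. The medians of the 10 genes were 0.69, 0.52, 0.02 and -0.56 from the left panel to the right.

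Likeness of pattern was described over 33 combinations of cluster and library with at least 50 nuclei, which share libraries and clusters, by Pearson's r of log2(CPM + 1). Among the members the closest pair was Pparg and Nr1h3 (0.85), followed by Fabp4 and Nr1h3 (0.82), and Abca1 and Abcg1 had 0.79. Pparg and Plin2 had -0.09. Of 6816 genes considered, those most like Pparg were Ncoa4 (0.92), Ak8 (0.91) and Scyl2 (0.89), and those most like Cd36 were Trio (0.86), Osbpl8 (0.85) and Arhgap10 (0.81). For Plin2 they were Noct (0.84), Osbpl8 (0.81) and Trio (0.81), 2 of which it shared with Cd36.

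Genes most like Fabp4 were Anxa4 (0.93), Myo10 (0.92) and Anpep (0.91), and those most like Nr1h3 were Adgre5 (0.89), Myo10 (0.88) and Ak8 (0.88). Abca1 was most like Sat1 (0.80), Abcg1 (0.79) and Acsl4 (0.77), and Abcg1 was most like Il1a (0.85), Colgalt1 (0.85) and Sat1 (0.83). Soat1 lay with Wdr91 (0.92), Lrp12 (0.92) and Cipc (0.91). Lipa lay with Lpp (0.89) and with 2 subunits of the lysosomal proton pump, Atp6v1b2 (0.88) and Atp6v0d2 (0.88). Msr1 had the weakest likeness, with Rassf1 (0.74), Ap1ar (0.71) and Hsd17b12 (0.69).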

How the data were processed

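Single-nucleus RNA was measured in 6 libraries of sorted nuclei (10x Genomics). The deposited files are matrices of UMI counts per gene and barcode, made by the authors with Cell Ranger (7.2.0 per the file headers, 7.1.0 in the submitters' processing notes) on mm10. How intronic reads were counted is not given in the sources used here. Within each library, nuclei outside the 2.5 to 97.5 percentiles of UMIs or genes, or above the 97.5 percentile of mitochondrial share, were left out, and 61917 of 67360 stayed. Doublets were scored with Scrublet in scanpy 1.11.5, and 5736 were called. No cluster held over 50% of calls, so called nuclei were left out only in an alternative.

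Nuclei were clustered with Seurat 5.3.0 (sctransform 0.4.2, 30 components, resolution 0.5, and 0.25 for myeloid nuclei) without the 10 genes, the wider lipid lists, mitochondrial and sex-linked genes. A name needed at least 3 of 8 markers raised. A rule added after the clusters were seen kept a myeloid cluster from taking another lineage's name unless a marker of that lineage led it, which left cluster 2 unnamed. Counts were summed per group and library and divided by the non-mitochondrial UMIs, with exact Poisson and conditional binomial intervals (scipy 1.17.1). A gene at 0 was set to a floor of 3 counts. With 1 library per group no p-value was computed. The scripts were tested on simulated data, and the alternatives include TMM from edgeR 4.0.16. The genes named are the 10, the 3 most abundant of each wider list and the 3 most like each of the 10. Stab2, Marco, Olr1, Cyp27a1, Apoc1, Apoc2, Mgll and Hilpda were named after their values were seen. The 10 genes and the lists were chosen with earlier results of these data known. Gene coordinates are from GENCODE M21 and promoter windows from RefSeq, both on GRCm38.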

Additional observations from a re-analysis of the deposited data

How the results depend on the processing

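No paired analysis was possible because each group is 1 library with 1 replicate number. Ratios matched by the sex of the mouse are given as values and carry no test. Counting error is the only error covered, so a difference between libraries cannot be told apart from one between mice or preparations. Log-normalised clustering moved 72 of 114 gene ratios beyond their counting interval, female and male nuclei alone each 64 of 113, and doublet removal 0 of 126. With log-normalised clustering a cluster of 5960 nuclei led by Dach1 took the border-associated name. The values below are medians of the log2 ratios of the 10 genes, and the cause of a move was not tested.

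With the lipid genes kept in the clustering the border-associated ADWA11 median at 21 dpi turned to -0.15 (Abcg1 -0.088, Nr1h3 -0.20), and the lesion medians were 0.78 for ADWA11 at 7 dpi and 0.62 for day. At resolution 0.5 the microglia-like day median turned to -0.043, that of Tgfbr2-cKO at 21 dpi was 0.049 (from -0.11), and the border ADWA11 median at 21 dpi was 0.34. With log-normalised clustering the border medians were 0.027 for ADWA11 at 21 dpi and 0.18 for day (from -0.22, a change of sign), and the lesion medians were -0.17 (from 0.02) and -1.11 for Tgfbr2-cKO at 7 and 21 dpi, 0.88 and 0.39 for ADWA11, and 0.98 for day. Within cluster 2 alone, chosen after seeing the data, those 5 lesion medians were -0.15 (from 0.02), -0.18, 0.82, 0.35 and 0.26.

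TMM scaling, which shifted libraries by -0.13 to 0.11, gave 0.014 for day in microglia-like nuclei, and 0.63 for ADWA11 at 21 dpi and 0.28 for day in lesion clusters. Means per nucleus gave -0.33 for Tgfbr2-cKO at 21 dpi in microglia-like nuclei, and 0.58 and 0.30 for the same lesion comparisons. Female nuclei alone gave 0.11 (from -0.11) for microglia-like Tgfbr2-cKO at 21 dpi, 0.38 for border ADWA11 at 21 dpi, and 0.54 (ADWA11 at 7 dpi) and 0.29 (day) in lesion clusters. Male nuclei alone gave -0.33 for microglia-like and 0.17 for border Tgfbr2-cKO at 21 dpi (the last from -0.22, a change of sign), and -0.56 (border) and 0.48 (lesion) for day. Without the 5 nuclei with most UMIs of a gene the border ADWA11 median at 21 dpi was 0.97 and the lesion Tgfbr2-cKO median at 7 dpi -0.16 (from 0.02). Leaving out doublet calls or pooling lesion and border clusters moved none of the medians. Subtracting 5% free RNA moved none either, and 1 of 126 gene ratios, so it is no test of larger amounts.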
